A study of Sus scrofa with 3 samples.

Results

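The miR-200 family and miR-375 are microRNAs of epithelial cells, and they were followed here through the liver of the pig. The 6 hairpins of the set are those named miR-200a, miR-200b, miR-200c, miR-141, miR-429 and miR-375 in tables of known miRNAs of pig and other mammals, whichever species lent the name. Reads were summed for each hairpin and arm, which gave 11 mature arms out of 985 with a read in all. Small RNA came from liver of male pigs of the Jinhua breed at embryonic day 90 (E90), at day 30 after birth (P30d) and at 7 years (P7y). For each stage the labels name 3 pigs, and they call the stages embryo, weaning and adult, with 1 library each and no word on whether RNA was pooled. No stage has a replicate, so every difference compares libraries, not stages, and carries no p-value. Intervals are 95% and cover counting error only, and PCR copies are not independent molecules.

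A miRNA is cut from a hairpin with a 5p and a 3p arm, and pairs with target transcripts mainly through its seed, bases 2 to 8. The miR-200 family is known for repressing ZEB1 and ZEB2, transcription factors that switch off E-cadherin, and so for keeping cells epithelial. In mammals it is encoded in a cluster of miR-200b, miR-200a and miR-429 and in a second cluster of miR-200c and miR-141. In liver its members are known from the cells that line bile ducts more than from hepatocytes. miR-375 is best known from the islets of the pancreas, where it restrains insulin release, and it is also found in other epithelia. In bulk liver, fewer cells of a type and less RNA per cell cannot be told apart.

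The most copied 3p reads are shown because the family is divided by its seed in another way than by its clusters. They were read from the deposited tables, 5′ to 3′, with the seed in capitals.
miR-200b-3p: tAATACTGcctggtaatgatga
miR-200c-3p: tAATACTGccgggtaatgatgga
miR-429-3p: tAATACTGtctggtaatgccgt
miR-200a-3p: tAACACTGtctggtaacgatg
miR-141-3p: tAACACTGtctggtaaagatgg
miR-375-3p: tTTGTTCGttcggctcgcgtga
The first 3 share the seed AATACTG and the next pair shares AACACTG, so each cluster encodes both seeds. Between miR-200b-3p and miR-200a-3p the seed differs by T4C, counted from 1 at the 5′ end with the base of miR-200b-3p first. Over 21 bases miR-200a-3p and miR-141-3p differ by C17A alone, with the base of miR-200a-3p first. The miR-375-3p read has a seed of its own, and it starts 1 base after the cattle miRNA that the authors took as its model.

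The hairpin of miR-200b was placed at chr6:58064307-58064381 on the plus strand and that of miR-429 at chr6:58044173-58044254 on the minus strand (Sscrofa10.2 coordinates of the tables). In this build 20052 bases lie between them, and they face opposite ways. The hairpins of miR-141, at chr5:66193711-66193796, and miR-200c, at chr5:66194124-66194207, lie 327 bases apart on the same minus strand. miR-375 was placed at chr15:133957529-133957635 on the plus strand. Whether these hairpins lie in exons, introns or between genes of this build was not analysed here. In RefSeq's annotation of the later build Sscrofa11.1, MIR429 lies on chromosome 6 with LOC110261078 and TTLL10 as its neighbours. The miR-200b hairpin is shown as deposited because it is the only one of the 6 with reads of both arms in all 3 libraries at a known place, and the arms are in capitals:
miR-200b hairpin: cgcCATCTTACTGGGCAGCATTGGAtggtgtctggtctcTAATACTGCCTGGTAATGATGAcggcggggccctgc

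No hairpin of miR-200a was placed on the genome by the authors. A group of 3p reads led by the 21-base form was instead set at the miR-141 hairpin on chromosome 5, with the mismatch A17C against the genome base, and a group led by longer forms was left without a place. The deposited hairpin at that place carries the 3p arm of miR-141 in capitals:
miR-141 hairpin: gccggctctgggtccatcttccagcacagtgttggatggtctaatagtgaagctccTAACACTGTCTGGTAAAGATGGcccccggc
By the base at position 17 these reads are miR-200a-3p, and they were counted as such. They made up 415 of 796 miR-200a-3p reads at E90, then 239 of 677 at P30d and 204 of 373 at P7y.

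Known miRNAs had 9243601 reads in the E90 library, 3622993 at P30d and 9920207 at P7y, and levels are given in counts per 1000000 of these (CPM). A count of 0 allowed up to 0.325 CPM at E90, then 0.828 at P30d and 0.302 at P7y. Hepatocyte markers matched the label of the tissue, with miR-122-5p at 128017 CPM in the E90 library, 213802 at P30d and 37870 at P7y. Against this background the 11 arms were scarce, with 0.205% of miRNA reads at E90, then 0.0464% at P30d and 0.0930% at P7y. Ratios were compared over 325 miRNAs whose mean reached 10 CPM, and 5 of the 11 arms were among them. A filter on the mean can pass an arm that is high in 1 library alone, as it did for miR-429-3p, which reached 10 CPM at E90 only. Higher and lower stand for a difference of 2-fold or more with an interval of the log2 ratio that excludes 0.

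miR-375-3p was the most abundant arm of the set at E90 and P7y, but not at P30d. It had 11917 reads in the E90 library, 377 at P30d and 7007 at P7y, which made 1289 CPM, 104 CPM and 706 CPM. The P30d library was thus far below both others, while E90 and P7y stood within 2-fold of each other. The log2 ratio was -3.63 for P30d over E90 (interval -3.78 to -3.48) and 2.76 for P7y over P30d (2.61 to 2.92), the second being 3.75 with TMM factors and 3.93 with DESeq2 size factors. For P7y over E90 it was -0.87 under CPM, short of the 2-fold rule, and its sign turned under other scalings, to 0.15 with TMM factors and 0.24 with DESeq2 size factors. Both of these scalings set libraries level by the bulk of the miRNAs, so that a few very abundant ones weigh less than in CPM. No read of its 5p arm was found, against 11917 3p reads at E90.

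miR-200b-3p, of the AATACTG seed, was the most abundant family member at E90 and P7y. It had 5670 reads at E90, then 416 at P30d and 1768 at P7y, which made 613 CPM, 115 CPM and 178 CPM. E90 was the highest and P30d the lowest, and the log2 ratio of P30d over E90 was -2.42 (-2.56 to -2.27). For P7y over P30d it was 0.63 (0.48 to 0.79), under the 2-fold rule with CPM and past it with TMM factors, at 1.62, and with DESeq2 size factors, at 1.80. For P7y over E90 it was -1.78 with CPM, but -0.77 with TMM factors and -0.68 with DESeq2 size factors, both short of the rule.

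miR-200a-3p, which other mammals cut from the same transcript as miR-200b, did not follow it. It had 796 reads in the E90 library, 677 at P30d and 373 at P7y, which made 86.1 CPM, 187 CPM and 37.6 CPM. Here P30d was the highest library, with a log2 ratio of 1.12 for P30d over E90 (0.97 to 1.27) and -2.31 for P7y over P30d (-2.50 to -2.13), the second being -1.32 with TMM factors and -1.14 with DESeq2 size factors. Without the reads set at the miR-141 hairpin, a setting chosen after seeing the data, the levels were 41.2 CPM, 121 CPM and 17.0 CPM in the same order of libraries, and P30d was again the highest. For P7y over E90 the log2 ratio was -1.20 with CPM, -0.18 with TMM factors and -0.09 with DESeq2 size factors.

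miR-141-3p, of the other cluster but with the seed of miR-200a, was also highest at P30d. It had 151 reads at E90, then 142 at P30d and 32 at P7y, which made 16.3 CPM, 39.2 CPM and 3.23 CPM. The log2 ratio was 1.26 for P30d over E90 (0.92 to 1.60) and -3.60 for P7y over P30d (-4.20 to -3.04), the second being -2.61 with TMM factors and -2.43 with DESeq2 size factors. Counted by its representative read alone, which made up 79.5% of its reads at E90 but 40.1% at P30d, the first of these was 0.25 and no longer past the rule. For P7y over E90 the log2 ratio was -2.34 (-2.94 to -1.78) with CPM, -1.32 with TMM factors and -1.24 with DESeq2 size factors.

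miR-429-3p, which shares its seed with miR-200b-3p, was lower in each later library. It had 324 reads in the E90 library, 34 at P30d and 17 at P7y, which made 35.1 CPM, 9.38 CPM and 1.71 CPM. The log2 ratio was -1.90 for P30d over E90 (-2.46 to -1.39), -2.45 for P7y over P30d (-3.39 to -1.57) and -4.35 for P7y over E90 (-5.15 to -3.65). The last is the lowest P7y over E90 ratio of the 5 arms. With TMM and DESeq2 factors the P7y over P30d ratio was -1.46 and -1.28 and the P7y over E90 ratio -3.34 and -3.25, all past the rule.

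miR-200c-3p was the least abundant 3p arm at E90 and at P30d, and its mean of 5.25 CPM kept it out of the comparisons. It had 52 reads at E90, then 29 at P30d and 21 at P7y, which made 5.63 CPM (4.20 to 7.38), 8.0 CPM (5.36 to 11.5) and 2.12 CPM (1.31 to 3.24). The E90 and P30d intervals overlap, so no difference between them was detectable at this depth. At P7y it stood beside miR-141-3p and miR-429-3p, and the intervals of all 3 overlap there.

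**Figure D1:**
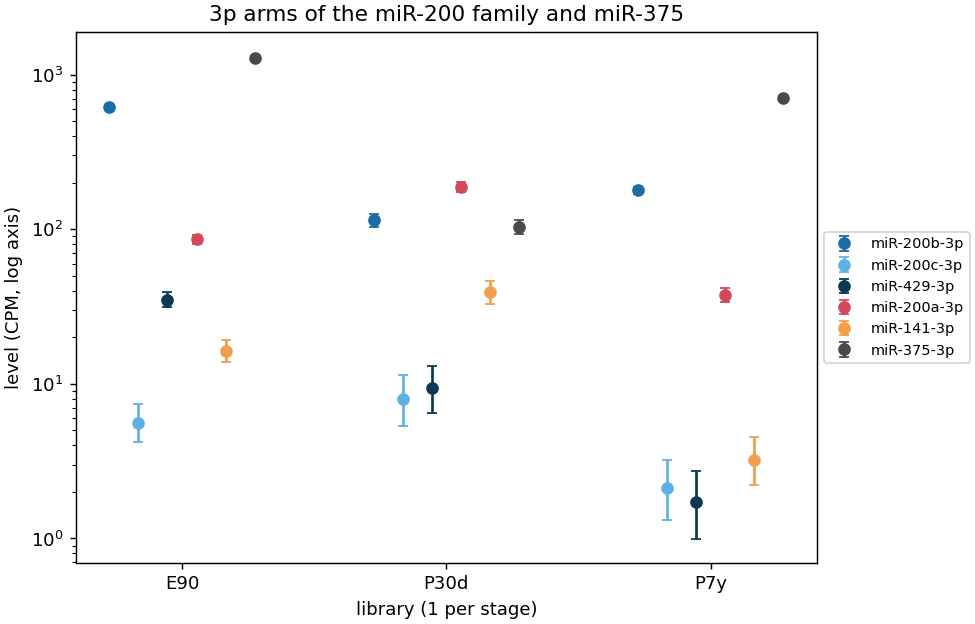
Level of the 3p arm of each member in CPM on a log axis, with 1 library per stage; points are levels and bars are 95% counting intervals. miR-375-3p and miR-200b-3p are lowest at P30d, at 104 and 115 CPM, while miR-200a-3p and miR-141-3p are highest there, at 187 and 39.2 CPM.

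The order of the members therefore differed between libraries. At E90 it ran miR-375-3p, miR-200b-3p, miR-200a-3p, miR-429-3p, miR-141-3p and miR-200c-3p, and no neighbouring intervals overlapped. At P30d miR-200a-3p came first, followed by miR-200b-3p and miR-375-3p, whose intervals of 104 to 126 and 93.8 to 115 CPM overlap, then by miR-141-3p, and last by miR-429-3p and miR-200c-3p, which overlap too. At P7y miR-375-3p, miR-200b-3p and miR-200a-3p again led in that order. Counts of different miRNAs also depend on how well each is ligated, so this order is one of reads.

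Of the 5 arms past the filter, 2 were higher and 3 lower at P30d than at E90, where 33.5% of all 325 miRNAs were higher and 35.4% lower, or 68.9% either way. Between P30d and P7y, 1 was higher at P7y and 3 lower, where 13.5% of all were higher and 56% lower, or 69.5% either way. Between E90 and P7y, 0 were higher at P7y and 4 lower, where 12% of all were higher and 50.8% lower, or 62.8% either way. Most miRNAs were called in each pair, so with 5 arms these counts do not set the members apart. Among the lower ones in each pair was miR-429-3p, which passed the filter through its E90 level alone. Its calls against E90 were therefore favoured by the filter. miR-141-3p, with 16.3 CPM at E90 and 3.23 CPM at P7y, passed through its P30d level of 39.2 CPM. The calls of miR-141-3p that set P30d against another library were likewise favoured. Both arms also enter the medians of the 5 arms. The median log2 ratio of all 325 was -0.11 for P30d over E90, -1.37 for P7y over P30d and -1.07 for P7y over E90, beside medians of -1.90, -2.31 and -1.78 for the 5 arms. For P7y over P30d, 44 of all were higher and 182 lower with CPM, against 87 and 118 with TMM factors, which put the median at -0.38. For P7y over E90, 39 were higher and 165 lower with CPM, against 90 and 109 with TMM factors. Relative to the CPM median, miR-375-3p stood at 4.13 and miR-200b-3p at 2.0 for P7y over P30d, whereas miR-200a-3p stood at -0.94, miR-429-3p at -1.08 and miR-141-3p at -2.23. In the ranking of all 325 by that ratio, miR-375-3p was at percentile 96.0, miR-200b-3p at 83.1 and miR-141-3p at 13.8.

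**Figure D2:**
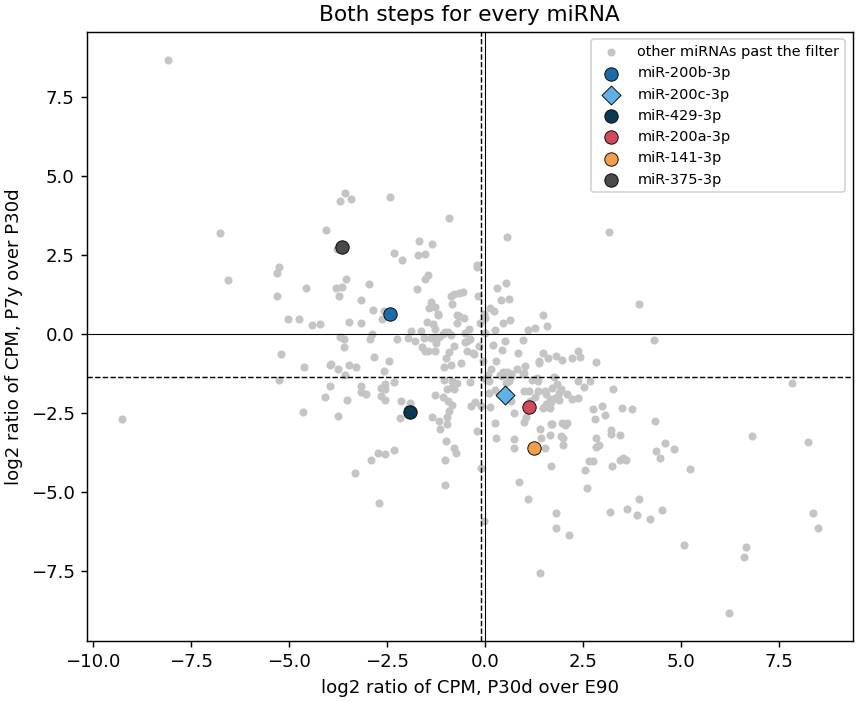
Log2 ratio of CPM for P30d over E90 (horizontal) and P7y over P30d (vertical) for each miRNA past the filter, in grey, with the members in colour; dashed lines mark the medians of all, and the diamond is miR-200c-3p, which did not pass the filter. miR-375-3p and miR-200b-3p lie at the upper left, at -3.63 and 2.76 and at -2.42 and 0.63, and miR-200a-3p and miR-141-3p at the lower right.

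The arms can be compared within a library, where the total cancels. Both seeds were found in every library, but in different proportions. Reads with the AATACTG seed were 86.5% of 3p family reads in the E90 library (85.6 to 87.3), 36.9% at P30d (34.3 to 39.6) but 81.7% at P7y (80.0 to 83.3). The quotient of the AATACTG group over the AACACTG group was 0.58 at P30d against 6.38 at E90, a log2 change of -3.45 (-3.64 to -3.25). It was 4.46 at P7y against 0.58 at P30d, a log2 change of 2.93 (2.70 to 3.16). miR-200b-3p and miR-200a-3p make up most of these reads, and their own quotient was 0.61 at P30d against 7.12 at E90.

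The cluster of miR-200c and miR-141 held a small part of the family in each library. Its share of family reads, both arms included, was 2.89% at E90 (2.51 to 3.31), then 13.3% at P30d (11.5 to 15.2), with 2.39% at P7y (1.79 to 3.11). E90 and P7y overlap in their intervals and P30d stands above both. Its summed level was 22.0 CPM in the E90 library, 47.8 CPM at P30d and 5.34 CPM at P7y, and that of the miR-200b, miR-200a and miR-429 cluster was 738 CPM, 312 CPM and 219 CPM. The quotient of the smaller cluster over the larger was 0.15 at P30d against 0.030 at E90, a log2 change of 2.36 (2.05 to 2.68), and 0.024 at P7y against 0.15 at P30d, a log2 change of -2.65 (-3.13 to -2.18).

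Within each cluster the members also parted. In the larger one, miR-429-3p over miR-200b-3p was 0.082 at P30d against 0.057 at E90, a log2 change of 0.52 whose interval of -0.06 to 1.05 includes 0. The same quotient was 0.0096 at P7y against 0.082 at P30d, a log2 change of -3.09 (-4.03 to -2.19). In the smaller one, miR-200c-3p over miR-141-3p was 0.20 at P30d against 0.34 at E90 (log2 change -0.75, -1.54 to 0.02) and 0.66 at P7y against 0.20 at P30d (1.68, 0.61 to 2.74). Across the clusters, miR-141-3p over miR-200a-3p, the pair with the AACACTG seed, was 0.21 at P30d against 0.19 at E90, a log2 change of 0.14 with an interval of -0.23 to 0.52. At P7y that quotient was 0.086, a log2 change of -1.29 (-1.92 to -0.69) from P30d and -1.14 (-1.77 to -0.55) from E90. The pair with the AATACTG seed across the clusters, miR-200c-3p over miR-200b-3p, changed by 2.93 (2.20 to 3.63) for P30d over E90. Its log2 change was -2.55 (-3.45 to -1.68) for P7y over P30d and 0.37 (-0.44 to 1.13) for P7y over E90. Neither pair thus kept its quotient over all 3 libraries.

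**Figure D3:**
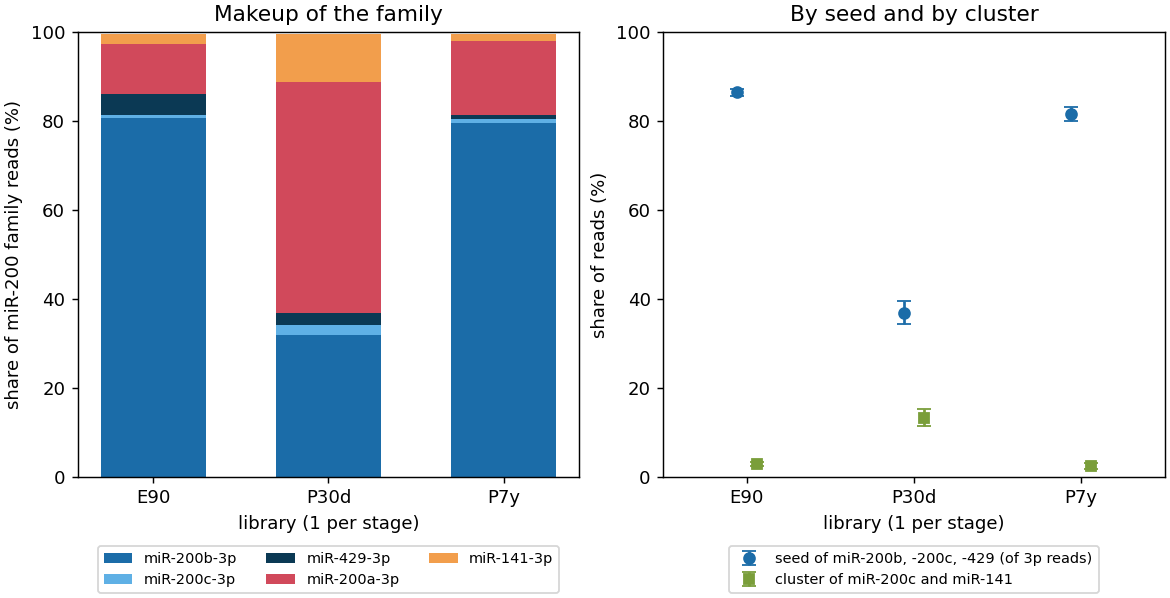
Left, share of miR-200 family reads held by the 3p arm of each member in each library, as stacked bars; right, the share of the AATACTG seed group among 3p reads (circles) and of the miR-200c and miR-141 cluster among family reads (squares), with 95% intervals. miR-200b-3p fills 80.7% of the bar at E90, then 31.9% at P30d and 79.6% at P7y, and miR-200a-3p fills 52.0% at P30d.

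miR-375 and the family as a whole did not keep step either. The family had 7027 reads in the E90 library, 1303 at P30d and 2222 at P7y, or 760 CPM, 360 CPM and 224 CPM. Its log2 ratio was -1.08 for P30d over E90 with CPM and below 0 under both other scalings. For P7y over P30d it was -0.68 with CPM but 0.31 with TMM factors and 0.49 with DESeq2 size factors, so which of these libraries was the lower depends on the scaling. miR-375-3p over the family was 0.29 at P30d against 1.70 at E90 (log2 change -2.55, -2.73 to -2.38), and 3.15 at P7y against 0.29 at P30d (3.45, 3.26 to 3.63). Its share of all reads of the 6 hairpins was 62.9% at E90, then 22.4% at P30d and 75.9% at P7y.

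The 3p arm supplied nearly all reads of the family, with 99.5% in the E90 library, 99.6% at P30d and 99.5% at P7y. The most copied 5p reads of miR-200b, miR-200a and miR-141 are shown because those of miR-200a and miR-200b share a seed that the 3p arms lack.
miR-200b-5p: cATCTTACtgggcagcattgga
miR-200a-5p: cATCTTACcggacagtgc
miR-141-5p: cATCTTCCagcacagtgttgga
miR-200b-5p had 21 reads at E90, then 2 at P30d and 1 at P7y, and miR-200a-5p had 11, 1 and 10. The 2 reads of miR-200b-5p at P30d start 1 base later and so have the seed TCTTACT instead. The miR-200a-5p form shown has 18 bases and was the most copied at P7y, whereas that of E90 had 22 bases with the same seed. The 5p share of miR-200a was 1.36% in the E90 library (0.68 to 2.43), 0.147% at P30d (0.0037 to 0.819), with 2.61% at P7y (1.26 to 4.75), and that of miR-200b was 0.369%, 0.478% and 0.0565%. The minor arm held a median of 0.905%, 1.16% and 0.877% in the same order over 193 hairpins with at least 50 reads per library. miR-141-5p had 1 read, at P30d, and miR-429-5p had 2, at E90. The single read filed as miR-200c-5p, at P30d, has 16 bases and lies upstream of the usual arm in the hairpin it was matched to.

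The 3p ends differed between libraries for some members. The tables give for each group of reads of an arm the most copied one, called the representative read. For miR-200b-3p this was the 22-base read above at E90 and P7y, but at P30d a read of 24 bases whose last base differs from the genome by G24T:
miR-200b-3p, most copied at P30d: tAATACTGcctggtaatgatgact
The most copied read held 51.5% of miR-200b-3p reads at E90 (50.2 to 52.8), then 23.1% at P30d (19.1 to 27.4), with 46.4% at P7y (44.1 to 48.8). Reads with a mismatch to the hairpin made up 17.1% of miR-200b-3p in the E90 library, 45.4% at P30d (40.6 to 50.4) and 31.8% at P7y. Over all known miRNA reads the shares with a mismatch were 18.6%, 13.9% and 21.7%, and the medians over 297 miRNAs with at least 10 reads in each library were 12.9%, 14.7% and 17.5%. P30d was the library with the highest share for 39.4% of those miRNAs, so miR-200b-3p was not alone in this.

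All 5 family members had their lowest share of the most copied read at P30d, with 55.2% for miR-200c-3p, 40.1% for miR-141-3p, 34.6% for miR-200a-3p and 26.5% for miR-429-3p. The P30d interval of miR-200c-3p overlaps those of both other libraries, and those of miR-141-3p and miR-429-3p overlap the P7y ones. The same held for 36.7% of the 297 miRNAs. For miR-200a-3p the longer form differed, with 22 bases at E90 and P7y and 23 at P30d:
miR-200a-3p, longer form at E90 and P7y: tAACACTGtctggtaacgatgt
miR-200a-3p, longer form at P30d: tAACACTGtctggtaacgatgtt
For miR-429-3p and miR-141-3p it was P7y that differed, with most copied reads of 19 and 21 bases, against 22 for both at E90 and P30d. The most copied read of miR-200c-3p had 23 bases in every library. miR-375-3p kept 1 form in all 3 libraries, the 22-base read above, with 84.4% of its reads at E90, then 81.2% at P30d and 79.7% at P7y. The seed was the same in every one of these forms. Whether the change of ends has a part in the levels was not tested.

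**Figure D4:**
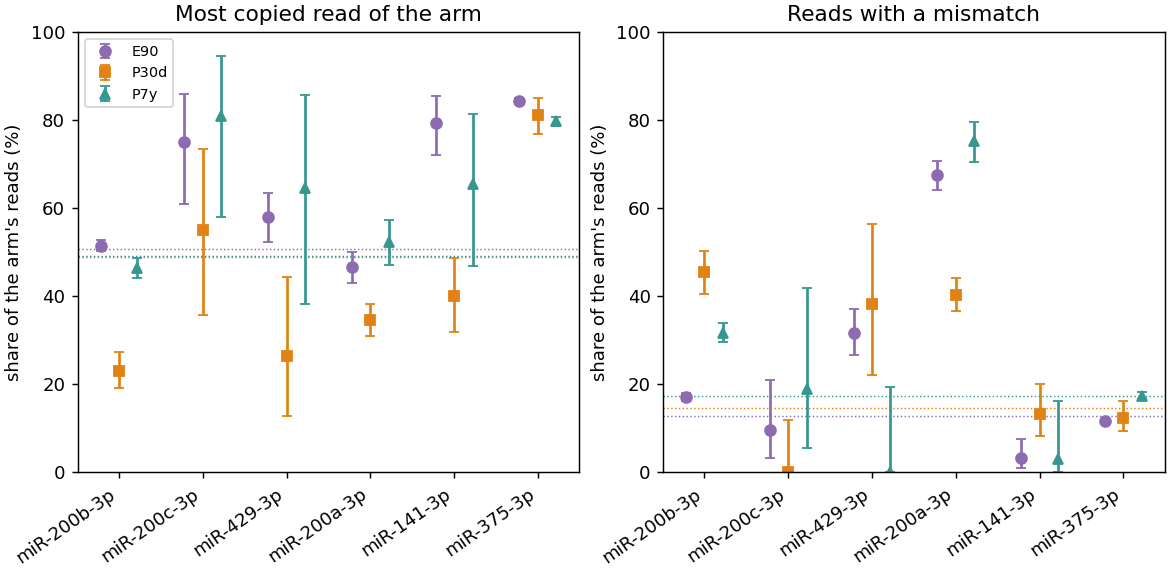
Share of the 3p reads of each member held by its most copied read (left) and by reads with a mismatch (right) in each library, with 95% intervals; dotted lines are the medians of 297 miRNAs. On the left the P30d squares of the 5 family members are below those of E90 and P7y, while miR-375-3p stays between 79.7% and 84.4%; on the right most mismatches of miR-200a-3p come from reads set at the miR-141 hairpin.

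Other epithelial and pancreatic miRNAs were read beside the set, since the liver samples could hold ducts, islets or acinar tissue. The acinar miRNAs of the pancreas were found at E90 and not at P7y. miR-216b-5p had 251 reads in the E90 library, 3 at P30d and 0 at P7y, and miR-217-5p had 152, 2 and 0, so that both were under 0.302 CPM at P7y while miR-375-3p stood at 706 CPM. miR-7-5p, which islets and neurons share, had 702 CPM at E90, then 256 CPM at P30d and 177 CPM at P7y. The other arm of that hairpin, miR-7-3p, was highest at P30d, with 13.0 CPM, 54.9 CPM and 7.76 CPM in the same order. The 7 arms of the pancreas list with a read summed to 2050.3 CPM, 417 CPM and 891 CPM. Of these sums miR-375-3p itself gave 1289 CPM, 104 CPM and 706 CPM. Past the filter were 3 of the 7 arms, namely miR-375-3p, miR-7-5p and miR-7-3p. For P30d over E90 1 was higher (miR-7-3p) and 2 lower. For P7y over P30d 1 was higher (miR-375-3p itself) and 1 lower (miR-7-3p). For P7y over E90 0 were higher and 1 lower (miR-7-5p). Over all miRNAs the shares were 33.5% higher and 35.4% lower, 13.5% and 56%, and 12% and 50.8% in the same order of pairs. Their part in the E90 level of miR-375-3p was not tested.

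The miR-183, miR-96 and miR-182 cluster, known from sensory and other epithelia, was lower in both postnatal libraries. miR-182-5p had 469 CPM in the E90 library, 52.2 CPM at P30d and 66.4 CPM at P7y, with a log2 ratio of -3.17 for P30d over E90. miR-183-5p and miR-96-5p stood at -3.69 and -2.87 for the same pair. Reads of miR-203-3p, a miRNA of stratified epithelium, were filed under miR-203 and, in the E90 and P7y libraries alone, also under miR-203a. With both names joined, a choice made after seeing the data, it had 251 CPM, 235 CPM and 375 CPM and a log2 ratio of -0.093 for P30d over E90 (-0.21 to 0.02). miR-31-5p had 52.4 CPM, 1.38 CPM and 5.95 CPM, and miR-205-5p, a miRNA of basal epithelial cells, had 81 reads at E90, then 1 at P30d and 69 at P7y. Counted that way, of the 6 arms of this list past the filter, out of 14 with a read, 0 were higher and 5 lower at P30d than at E90 (median -3.02), beside 33.5% higher and 35.4% lower over all miRNAs. For P7y over P30d 2 were higher and 0 lower (median 0.51), beside 13.5% and 56%, and for P7y over E90 1 was higher and 4 lower (median -2.86), beside 12% and 50.8%. The 2 higher ones were miR-31-5p and miR-34c-5p, with only 5 and 16 reads at P30d. miR-31-5p passed the filter through its E90 level. miR-34c-5p, with 11.3 CPM, 4.42 CPM and 31.9 CPM, passed it through its P7y level. Calls that set those libraries against others were therefore favoured by the filter. The summed level was 1391 CPM in the E90 library, 353 CPM at P30d and 545 CPM at P7y. Its log2 ratio for P7y over P30d was 0.63 with CPM, 1.61 with TMM factors and 1.79 with DESeq2 size factors, and with the names apart it was -0.75 with CPM.

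**Figure D5:**
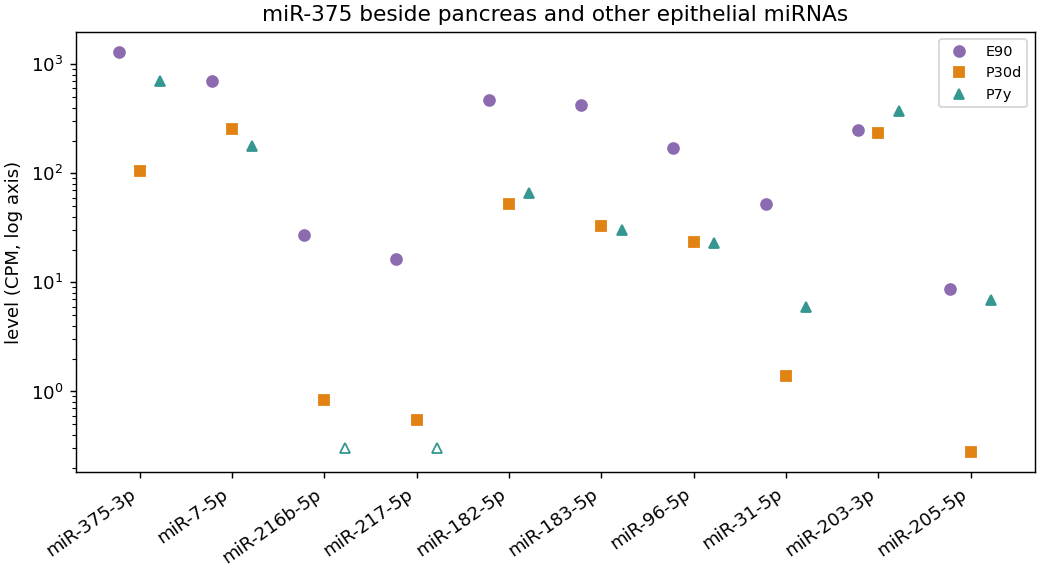
Level in CPM on a log axis of miR-375-3p beside 3 pancreatic miRNAs and 6 other epithelial miRNAs in each library; miR-203-3p has both of its names joined, and open symbols mark 0 reads and are drawn at the limit that 3 reads give. At P7y miR-216b-5p and miR-217-5p have 0 reads, while miR-375-3p stands at 706 CPM.

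The miRNAs most like each member were sought by the distance between their pairs of log2 ratios, P30d over E90 and P7y over P30d, among 178 miRNAs whose mean reached 100 CPM. With only 3 libraries such a distance is a description. Nearest to miR-375-3p was miR-148b-3p, at a distance of 0.16, with 8669 CPM at E90, then 635 at P30d and 4076 at P7y, and the next were miR-455-5p at 1.29 and miR-185-5p at 1.33. Nearest to miR-200b-3p was miR-223-3p, a miRNA of myeloid cells, at 0.17, followed by miR-182-5p at 0.80 and miR-320-3p at 0.87. miR-200a-3p had miR-1285-3p at 0.18, miR-499-5p at 0.33 and miR-26b-5p at 0.37. miR-141-3p had miR-15b-5p at 0.26, miR-32-5p at 0.35 and miR-30c-5p at 0.56. miR-200c-3p had miR-181b-5p at 0.15, miR-505-3p at 0.26 and miR-339-5p at 0.45. For miR-429-3p the nearest, miR-106b-5p at 0.58, was farther off than the nearest of any other member, followed by miR-221-3p at 0.83 and miR-381-3p at 0.96.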

How the data were processed

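Per the labels' protocols, RNA of 14 to 40 nt was cut from gels, given adaptors, amplified and read on an Illumina Genome Analyzer II. The authors, per the file headers, matched reads to miRBase hairpins of mammals, pig included, and placed hairpins on genome and ESTs. The build is Sscrofa10.2, per the submitters' processing notes; for aligner, trimming and miRBase release, the sources used here give nothing. The deposited reads per arm, and those without or with a mismatch, are expected counts, split among hairpins that share a read. The deposited copies of the representative read, and reads per hairpin, are counts.

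Expected counts of the hairpin groups of known miRNAs were summed per hairpin name and arm and rounded; predicted hairpins were left out of the CPM total. Of the names, 20 were merged with another because they had 1 representative read in common, at least 18 nt long and with over 50% of the reads under either name. Log2 ratios of CPM have exact conditional binomial intervals, shares exact Clopper-Pearson intervals, and quotients within a library exact conditional odds ratio intervals. A count of 0 entered ratios as 3 reads. The planned design gives no test across samples. All arms of the 6 hairpins are named, with the 3 nearest patterns of each 3p arm among miRNAs of at least 100 CPM. Members and lists were chosen with earlier results of these data known. Alternatives were TMM factors (edgeR 4.0.16), DESeq2 1.42.0 size factors, other totals, filters and ways of counting reads, and, chosen after seeing the data, the joining of miR-203a-3p with miR-203-3p and of miR-194a-5p with miR-194-5p in the lists. Other software was R 4.3.3, matplotlib 3.10.9, SciPy 1.17.1, NumPy 2.4.6, pandas 2.3.3 and Python 3.11.15.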

Additional observations from a re-analysis of the deposited data

How the results depend on the processing

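With 1 library per stage no library could be left out. No paired analysis was possible because no stage has a second sample. Of 120 recomputed log2 ratios of the 5 arms, 108 kept their direction and their side of the 2-fold rule, 6 fell short of it, 4 passed it and 2 turned in sign. The 108 include 15 ratios with no filter and 9 with a filter at 100 CPM. Those settings leave counts and totals as they are, so these ratios could not change. The 2 that turned were miR-375-3p for P7y over E90, at 0.15 with TMM factors and 0.24 with DESeq2 size factors. Falling short were, for P7y over E90, miR-200a-3p (-0.18 with TMM, -0.09 with DESeq2 and -0.87 with the 5 most abundant of each library left out of the total) and miR-200b-3p (-0.77 and -0.68), and, for P30d over E90, miR-141-3p by its representative read. miR-200b-3p for P7y over P30d passed it at 1.09 with reads without a mismatch and 1.72 with the representative read. That last ratio compares different reads, of 24 bases at P30d and 22 at P7y. The number of arms called was 3, 2 and 2 for P30d over E90, P7y over P30d and P7y over E90 with a filter at 100 CPM, where 3 arms were compared, 1 in each with known pig hairpins only, where miR-429-3p alone is left, and 2 for P7y over E90 with TMM or DESeq2 factors. Calls over all miRNAs for the same pairs were 393, 409 and 434 of 985 with no filter. They were 117, 123 and 103 of 178 at 100 CPM and 138, 146 and 133 of 218 with known pig hairpins only. For P7y over E90 they were 199 of 325 with TMM factors and 199 of 325 with DESeq2 size factors.

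The share of the miR-200c and miR-141 cluster at E90, P30d and P7y was 3.57%, 18.9% and 3.49% with reads without a mismatch, which drop the miR-200a-3p reads set at the miR-141 hairpin. It was 4.11% at E90 and 3.32% at P7y with the representative read, and 16.3% at P30d without those miR-200a-3p reads, a setting chosen after seeing the data. The share of the AATACTG seed group was 92.5% at E90 and 91.0% at P7y with reads without a mismatch, 82.8%, 19.8% and 74.9% in the 3 libraries with the representative read, and 91.9%, 45.2% and 90.0% without those miR-200a-3p reads. In each case P30d had the highest share of the cluster and the lowest of the seed group. With the representative read, an arm filed in several groups entered with the most copied read of each. At P30d miR-200a-3p thus entered with 234 and 214 copies, but miR-200b-3p with 96 copies for 416 reads. The 19.8% rests in part on this uneven way of counting. With known pig hairpins only, no share could be given. Joining names split in the tables, chosen after seeing the data, turned the sign of miR-203-3p (to -0.093 and 0.67 for P30d over E90 and P7y over P30d, against 3.07 and -2.58 apart) and of miR-194-5p (to -0.94 and 0.063, against 0.97 and -1.26). Depth limits miR-200c-3p and the 5p arms most.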

Other observations

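Over all miRNAs 33.5% were higher and 35.4% lower for P30d over E90, 13.5% and 56% for P7y over P30d, and 12% and 50.8% for P7y over E90. Among the other lists read for the same libraries, leukocyte miRNAs summed to 980 CPM at E90, 3447 CPM at P30d and 946 CPM at P7y, with 2 of 5 arms past the filter higher and 1 lower for P30d over E90, 0 and 2 for P7y over P30d, and 1 and 2 for P7y over E90. Most of the P30d sum came from miR-142-5p, a miRNA of blood cells picked after its values were seen, with 374 CPM, 2956 CPM and 609 CPM. The other arm of its hairpin, miR-142-3p, had 195 CPM, 190 CPM and 105 CPM, so the P30d rise was not shared by both arms. miR-223-3p, whose pattern was nearest to that of miR-200b-3p, had 296 CPM, 50.2 CPM and 83.1 CPM. Erythroid miRNAs summed to 7242 CPM, 3034 CPM and 1821 CPM, with 0 of 4 higher and 3, 1 and 4 lower for the pairs in that order. Of 12 hepatocyte arms, with miR-194a-5p joined to miR-194-5p, 6 were higher and 1 lower for P30d over E90, 2 and 7 for P7y over P30d, and 1 and 3 for P7y over E90. Of 13 mesenchymal arms 5 were higher and 4 lower, 3 and 6, and 3 and 2 for the same pairs. In these lists miR-885-3p and miR-214-5p passed the filter through their P30d level and miR-152-5p through its E90 level, which favoured their calls.

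miR-34c-5p, known from ciliated epithelium and from the response to p53, had 104 reads at E90, then 16 at P30d and 316 at P7y. Its log2 ratio was 2.85 for P7y over P30d (2.13 to 3.68) and 1.5 for P7y over E90 (1.18 to 1.84). It passed the filter through its P7y level, so both of these calls were favoured by the filter. Its neighbour miR-34b-3p had 3, 2 and 36 reads in the same order.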
